A study of Mus musculus with 24 samples.

Results

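The CXC chemokine genes Cxcl9, Cxcl10, Cxcl11, Cxcl1, Cxcl2, Cxcl3, Cxcl16 and Cxcl12 were followed in macrophages (BMDMs) and dendritic cells (BMDCs), both grown from bone marrow and treated with the mouse STING agonist DMXAA. These members were taken as the rows of the gene table with those symbols, 8 of 54532 genes. Both cell types came from tamoxifen-treated Tmem173 fl/fl mice (labelled WT) or Tmem173 fl/fl mice that also carried a tamoxifen-inducible Cre driven by Lyz2 (labelled CRE), all on the C57BL/6N background. Tmem173 encodes STING. Each of the 8 groups, control or DMXAA for each label and cell type, held 3 polyA RNA libraries, 24 in all. The design text gives DMXAA as 40 µM, while the study's methods give its doses by weight per volume. The time of treatment, the age of these animals and whether equal-group libraries came from separate animals or cultures are not given in the sources used here, so p-values measure only the spread between these libraries. BMDMs were grown with L929-conditioned medium and BMDCs with GM-CSF and IL-4. In this model every mouse received tamoxifen and carried the floxed allele, and deletion depends on Lyz2 activity in the cells exposed to tamoxifen.

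CXC chemokines are small secreted proteins that guide leukocytes through G protein-coupled receptors. Cxcl9, Cxcl10 and Cxcl11 are induced by interferons and attract activated T cells and NK cells through Cxcr3. Cxcl1, Cxcl2 and Cxcl3 attract neutrophils through Cxcr2 and are classical NF-κB targets, Cxcl16 is made as a membrane-bound protein that binds Cxcr6, and Cxcl12 is a mainly stromal ligand of Cxcr4 and Ackr3. STING, which senses cyclic dinucleotides made upon cytosolic DNA, signals through TBK1 to IRF3 and to NF-κB, so both kinds of chemokine lie downstream of pathways it is known to engage.

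In the file annotation (GRCm38), the 3 Cxcr3 ligand genes lie side by side on the minus strand of chromosome 5. Cxcl9 (ENSMUSG00000029417) spans chr5:92321347-92328079, Cxcl10 (ENSMUSG00000034855) chr5:92346638-92348889 and Cxcl11 (ENSMUSG00000060183) chr5:92359544-92365485, so all of them fit into 44.1 kb. Cxcl11 is annotated as a polymorphic pseudogene, as its reading frame is broken in the C57BL/6 reference strain, so its values are transcript levels with no stated protein. Cxcl3 (ENSMUSG00000029379, chr5:90786103-90789600), Cxcl1 (ENSMUSG00000029380, chr5:90891241-90893115) and Cxcl2 (ENSMUSG00000058427, chr5:90903871-90905938) lie on the plus strand of the same chromosome within 119.8 kb. A gap of 1415.4 kb separates the end of Cxcl2 from Cxcl9. Cxcl16 (ENSMUSG00000018920) lies alone at chr11:70453983-70459984 on the minus strand and Cxcl12 (ENSMUSG00000061353) at chr6:117168535-117181367 on the plus strand.

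The promoters of 4 members are shown because they set the 2 chromosome 5 clusters side by side by their letters. The 250 bases before the start of 6 of the 8 members were found in the RefSeq promoter table (GRCm38.p6), all but those of Cxcl11 and Cxcl16. They were searched on both strands for the core of the interferon-stimulated response element, which is GAAA, any 2 bases and GAAA again, and for the κB consensus. Matches are in capitals, printed 5′ to 3′ on the strand of the gene. The first sequence holds bases -230 to -81 from the start of Cxcl10 (chr5:92348970-92349119, minus strand), and the others hold bases -120 to -41 of Cxcl1 (chr5:90891125-90891204), Cxcl2 (chr5:90903779-90903858) and Cxcl3 (chr5:90785981-90786060), all on the plus strand.
Cxcl10: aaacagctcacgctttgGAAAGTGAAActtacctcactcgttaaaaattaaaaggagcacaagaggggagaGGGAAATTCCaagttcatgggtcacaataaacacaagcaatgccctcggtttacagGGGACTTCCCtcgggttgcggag
Cxcl1: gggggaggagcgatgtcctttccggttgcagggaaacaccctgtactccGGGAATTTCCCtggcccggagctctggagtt
Cxcl2: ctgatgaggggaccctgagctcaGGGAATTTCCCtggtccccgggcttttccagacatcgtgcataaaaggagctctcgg
Cxcl3: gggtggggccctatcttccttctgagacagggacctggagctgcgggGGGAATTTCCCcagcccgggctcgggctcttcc

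Cxcl10 held 1 match to the response element core at -213 to -204 and matches to the κB consensus at -159 to -150 and -103 to -94. Cxcl1, Cxcl2 and Cxcl3 held no match to the response element core. Each of them held the same run of 11 bases, GGGAATTTCCC, which matches the κB consensus on both strands in overlapping positions, at -71 to -61 in Cxcl1, -97 to -87 in Cxcl2 and -73 to -63 in Cxcl3. The 250 bases of Cxcl9 and of Cxcl12 held neither motif. Of 32851 promoters in the table, 2.98% held the response element core, 3.9% the κB consensus and 0.0426% the 11-base run, which was picked after it was seen in these genes. A match is a description of the letters only.

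Total counts were 15657347 to 18912887 per library. The 4 BMDM libraries numbered 3 (WT and CRE, control and DMXAA) go against their cell type label. Their summed fibroblast markers (8 genes, such as Col1a1 and Pdgfrb) were at 12657 to 19149 CPM against 28.8 to 63.1 in the 6 BMDM libraries that are neither numbered 3 nor WT number 2. Their 4 leukocyte markers summed to 0.0596 to 1.26 CPM against 1806 to 2929 in the other 8 BMDM libraries, and their 8 macrophage markers to 42.5 to 71.6 against 9535 to 21321. These libraries are shown apart and enter no test of the BMDMs, which therefore rest on 8 libraries, 2 per group. Fibroblast markers in both WT BMDM libraries numbered 2 summed to 422 to 458 CPM, so the values that moved most without them are given beside the results. Such fits leave 1 WT BMDM library per condition, which is assumed to vary like the other groups. That assumption was not tested. The tested WT BMDM pairs differed by a root mean square log2 difference of 0.632 (control) and 0.599 (DMXAA), against 0.175 and 0.192 for the CRE pairs. The p-values of these fits can therefore be far too small, and only their effect sizes are to be read. In the BMDCs the 8 dendritic cell markers summed to 5941 to 9931 CPM, against 166 to 635 in the 8 BMDM libraries. Their macrophage markers summed to 2064 to 9113 CPM, with both CRE libraries numbered 2 lowest at 2197 and 2064 and the other 10 at 6083 or more, and the part of this in the chemokine values of those libraries was not tested. Tmem173 itself had an FPKM of 9.91 to 31.8 in WT and 8.76 to 10.4 in CRE BMDMs, and of 28.8 to 55.3 in WT and 19.7 to 36.8 in CRE BMDCs. A transcript with a deleted part still counts towards the gene, so these levels do not check the labels. Each BMDC CRE library numbered 1 was nearer to the WT library numbered 3 of its treatment, and each numbered 3 nearer to the WT library numbered 2, than to any library of its own group (root mean square log2 difference 0.206 to 0.214, against 0.302 to 0.773 within their groups). These pairs differed by more than sampling noise (chi-square per degree of freedom 3.5 to 5.11), and no 2 libraries were identical.

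Levels are given as FPKM, fragments scaled by gene length and library size, so that genes can be compared. The plot of member levels shows every library. Cxcl9, Cxcl10 and Cxcl11 were near 0 without agonist and high with it.

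**Figure D1:**
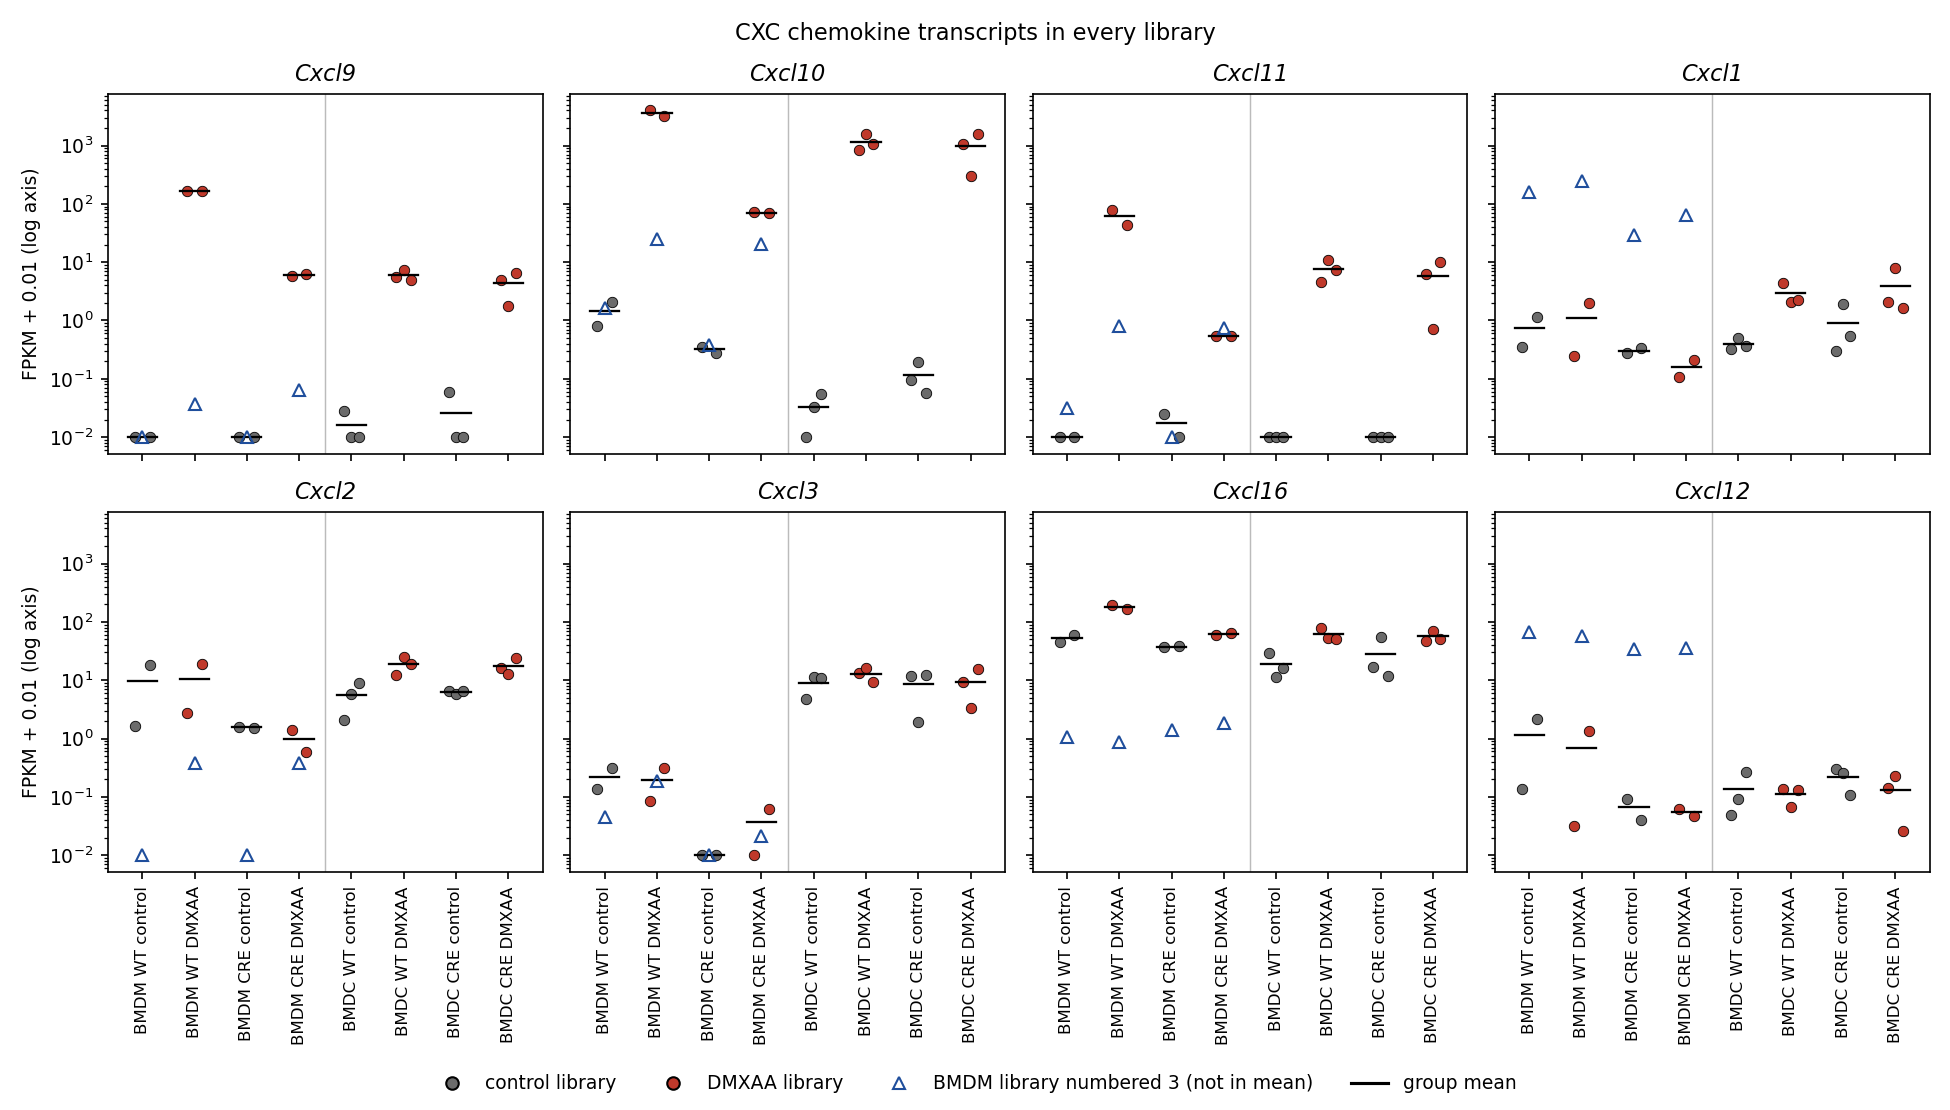
Level of the 8 CXC chemokines in each of the 24 libraries, as FPKM + 0.01 on a log axis, by group. Circles are the tested libraries and triangles the BMDM libraries numbered 3. In BMDM WT with DMXAA, Cxcl10 reached 3244 and 4085 FPKM, against 25.4 in the library numbered 3.

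Cxcl10 was the most abundant member in every BMDM and BMDC library treated with DMXAA, apart from the BMDM libraries numbered 3. In WT BMDMs its FPKM was 0.804 and 2.06 in control and 4085 and 3244 with DMXAA. In CRE BMDMs it was 0.348 and 0.269 in control and 71.9 and 70.1 with DMXAA. All treated libraries lay above all controls, and both treated CRE libraries lay far below both treated WT libraries. In WT BMDCs the Cxcl10 FPKM was 0, 0.0226 and 0.0452 in control and 845, 1553 and 1071 with DMXAA. In CRE BMDCs it was 0.0869, 0.188 and 0.0475 in control and 1072, 296 and 1579 with DMXAA. Treated BMDCs of both labels overlapped, with the CRE library numbered 2 lowest. By mean level, the order was BMDM WT with DMXAA (3665 ± 595, SD, n = 2), BMDC WT (1156 ± 362, n = 3), BMDC CRE (983 ± 646, n = 3) and BMDM CRE with DMXAA (71 ± 1.25, n = 2), then the control groups. Only the 2 treated BMDC groups overlapped as neighbours in that order.

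Cxcl9 shared the on/off pattern at a lower level. Its FPKM in BMDMs was 0 in all 4 tested controls, 169 and 168 in WT with DMXAA and 5.69 and 6.31 in CRE with DMXAA. In WT BMDCs it was 0.0179, 0 and 0 in control and 5.56, 7.38 and 4.92 with DMXAA. In CRE BMDCs it was 0.0487, 0 and 0 in control and 4.94, 1.73 and 6.4 with DMXAA. Treated WT BMDMs stood alone at the top, whereas the other 3 treated groups overlapped around means of 6 (BMDM CRE), 5.95 (BMDC WT) and 4.36 (BMDC CRE).

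Cxcl11 was likewise near 0 without agonist. In BMDMs the FPKM was 0 and 0 in WT control, 78.5 and 43 in WT with DMXAA, 0.0147 and 0 in CRE control and 0.539 and 0.522 in CRE with DMXAA. In BMDCs all 6 controls were at 0, WT with DMXAA had 4.62, 10.9 and 7.46, and CRE with DMXAA had 6.23, 0.695 and 10.1. Here the treated CRE BMDMs were the lowest treated group, below every treated BMDC library.

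Cxcl16, whose soluble form is released from the membrane by the proteases Adam10 and Adam17, was expressed before treatment. Its FPKM in WT BMDMs was 44.9 and 59.1 in control and 196 and 166 with DMXAA. In CRE BMDMs it was 36.4 and 38.4 in control and 60.5 and 63.3 with DMXAA. In WT BMDCs it was 29, 11.3 and 16.2 in control and 79.6, 53.3 and 50.1 with DMXAA. In CRE BMDCs the groups overlapped, with 16.9, 55.1 and 12 in control and 47.6, 70.8 and 51.7 with DMXAA. The CRE control numbered 2 stood above the other 5 BMDC controls. The treated WT BMDMs, at a mean of 181, were again above all other groups.

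Cxcl1, Cxcl2 and Cxcl3 are the Cxcr2 ligands of the set. Cxcl2 FPKM in WT BMDMs was 1.61 and 18 in control and 2.69 and 18.7 with DMXAA, so the libraries numbered 2 were high in both. In CRE BMDMs it was 1.57 and 1.51 in control and 1.37 and 0.569 with DMXAA. In WT BMDCs, Cxcl2 was 2.06, 5.71 and 8.79 in control and 12.1, 25.3 and 18.7 with DMXAA, and in CRE BMDCs 6.46, 5.87 and 6.44 in control and 15.9, 12.7 and 24.4 with DMXAA. In both BMDC labels the treated libraries lay above the controls. Cxcl1 was at most 1.99 FPKM in the 8 tested BMDM libraries. In WT BMDCs Cxcl1 was 0.316, 0.489 and 0.353 in control and 4.32, 2.1 and 2.26 with DMXAA, with no overlap. In CRE BMDCs Cxcl1 was 0.287, 1.89 and 0.542 in control and 2.1, 8.03 and 1.62 with DMXAA, and the control numbered 2 overlapped the treated libraries.

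Cxcl3 was measured above 1 FPKM in BMDCs and not in the tested BMDMs. Its FPKM was at most 0.298 in the 8 tested BMDM libraries. In WT BMDCs it was 4.67, 11.5 and 10.9 in control and 13.3, 16.2 and 9.4 with DMXAA, and in CRE BMDCs 11.9, 1.92 and 12.3 in control and 9.34, 3.35 and 15.8 with DMXAA. Control and treated libraries overlapped in both labels, and both CRE libraries numbered 2 were the lowest of their groups. Cxcl12 was at most 0.293 FPKM in the 12 BMDC libraries. In the 8 tested BMDM libraries it exceeded 0.126 only in the WT libraries numbered 2, with 2.13 in control and 1.32 with DMXAA, which are also the libraries with more fibroblast marker counts.

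The comparison of DMXAA with control asks which members responded to the STING agonist. It was tested with edgeR's quasi-likelihood test on the counts, and a gene is called at a Benjamini-Hochberg adjusted p under 0.05 over all genes tested. A gene was tested in BMDMs with an FPKM of at least 1 in 2 or more of the 8 libraries, which leaves out Cxcl3, and in BMDCs with that level in 3 or more of the 12, which leaves out Cxcl12. Cxcl9 and Cxcl11 in both cell types, and Cxcl10 in BMDCs, passed that filter through treated libraries alone and so had to differ. Cxcl1 and Cxcl12 passed in BMDMs through the WT libraries numbered 2 alone. Where a control group had 0 counts, the change is given as a lower bound against 3 counts over the group, and where it had 1 to 3 counts, as a ratio of counts with its exact 95% counting interval, which covers counting error only. Samples are bulk RNA, in which fewer cells of a type and less RNA per cell cannot be told apart.

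In WT BMDMs, the 3 Cxcr3 ligands and Cxcl16 rose with DMXAA. Of 7 members tested 4 were called higher and 0 lower, where 18.4% of all genes were called higher. Among the 4, Cxcl9 and Cxcl11 passed the filter through treated libraries alone, so that count is not to be read against the share. Cxcl10 rose 2347-fold, by 11.20 ± 0.52 on the log2 scale (SE, 95% interval 9.95 to 12.44, n = 2 against 2, edgeR adjusted p = 2.68e-05), and by 12.20 without the WT libraries numbered 2. Cxcl9 went from 0 to 13062 counts, at least 6509-fold higher (edgeR adjusted p = 2.01e-05), and Cxcl11 from 0 to 5724 counts, at least 2852-fold higher (edgeR adjusted p = 8.47e-05). Cxcl16 rose 3.22-fold, by 1.69 ± 0.17 on the log2 scale (edgeR adjusted p = 0.000559). The remaining members did not pass, with log2 changes of 0.50 ± 0.95 for Cxcl1, 0.02 ± 1.16 for Cxcl2 and -0.84 ± 1.54 for Cxcl12 (edgeR adjusted p = 0.72, 0.995 and 0.712). The WT libraries numbered 1 and 2 stood far apart in these 3 genes. Without the libraries numbered 2, the change of Cxcl1 turned to -0.62 and that of Cxcl12 was -2.60.

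In CRE BMDMs the same 4 of 7 members were called higher and 0 lower, where 7.28% of all genes were called higher. Cxcl9 and Cxcl11 passed the filter through treated libraries alone, Cxcl11 through those of WT. Cxcl10 rose 226-fold, by 7.82 ± 0.50 (edgeR adjusted p = 0.000193). Cxcl9 went from 0 to 592 counts, at least 224-fold higher (edgeR adjusted p = 0.000147). The count ratio of Cxcl11 was 74.8 (66 counts against 1, counting interval 13 to 2999, edgeR adjusted p = 0.0118), and Cxcl16 rose 1.63-fold, by 0.70 ± 0.17 (edgeR adjusted p = 0.0458). Cxcl1, Cxcl2 and Cxcl12 had log2 changes of -1.01 ± 1.16, -0.69 ± 1.29 and -0.34 ± 2.07 and were not called. The calls of Cxcl11 and Cxcl16 were lost when any 1 of the 4 CRE libraries was left out (edgeR adjusted p of 0.0653 to 0.094 and 0.228 to 0.292), while those of Cxcl9 and Cxcl10 were not. With the libraries numbered 3 included, 0 of 6 members tested (Cxcl11 and Cxcl3 were not) and 0 genes were called by edgeR in either BMDM label, with 1158 (WT) and 269 (CRE) of 12379 genes at an unadjusted p under 0.05.

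**Figure D2:**
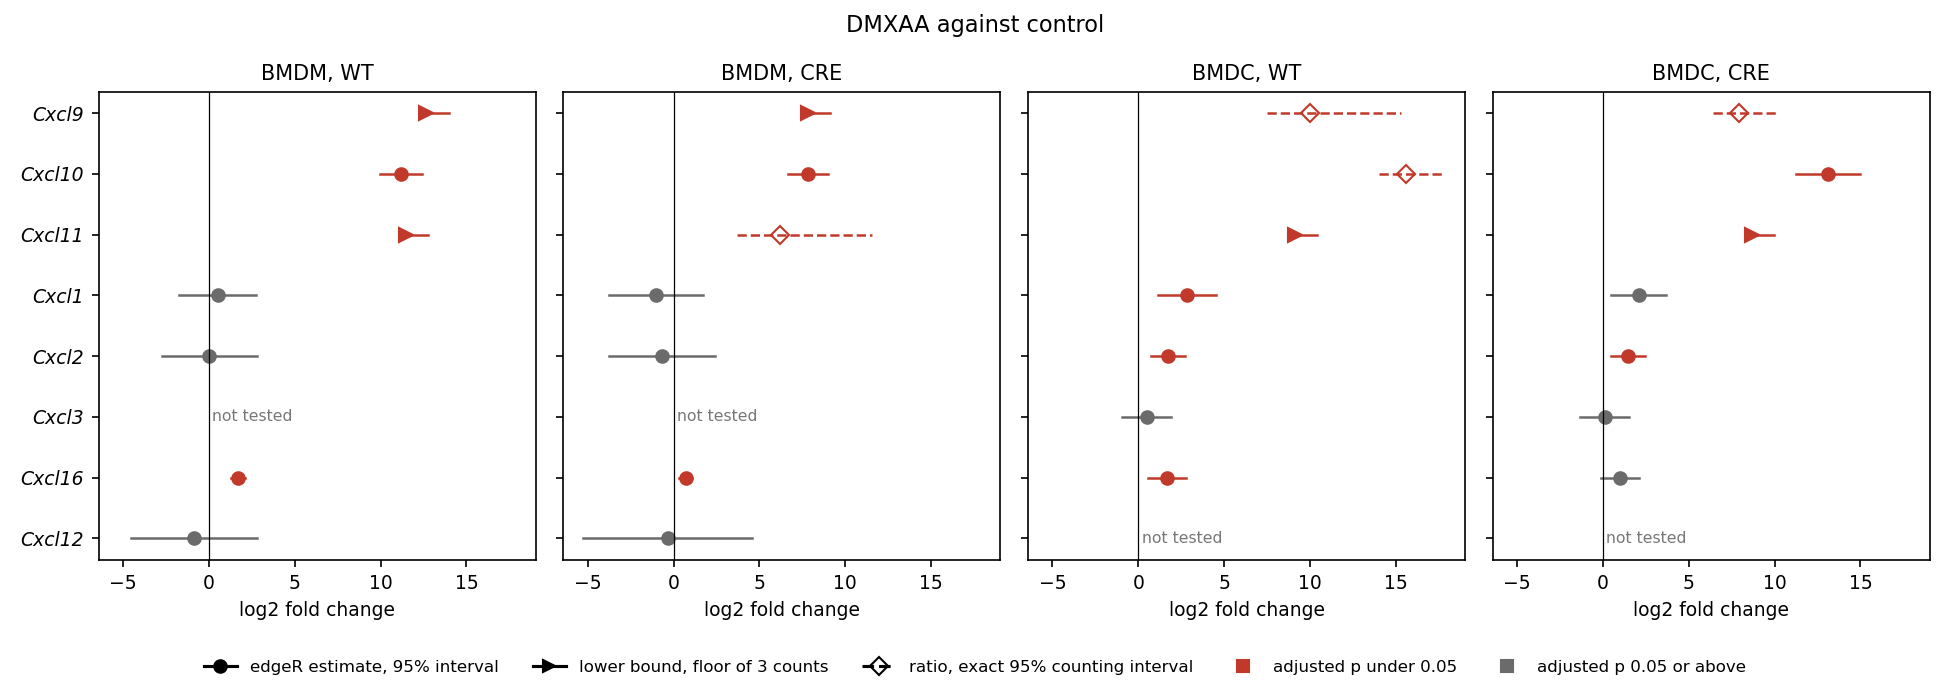
Log2 change of each member under DMXAA against control in BMDM WT, BMDM CRE, BMDC WT and BMDC CRE. Circles with bars are edgeR estimates with 95% intervals, right-pointing triangles are lower bounds against 0 counts, and diamonds are count ratios with counting intervals. Cxcl9, Cxcl10 and Cxcl11 lie far to the right of the other members in all 4 panels, from 6.22 upwards on the log2 scale.

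In WT BMDCs, the response also took in the Cxcr2 ligands Cxcl1 and Cxcl2. Of 7 members 6 were called higher and 0 lower, where 17% of all genes were called higher. Among the 6, Cxcl9, Cxcl10 and Cxcl11 passed the filter through treated libraries alone, so that count is not to be read against the share. The count ratio of Cxcl10 was 49637 (116907 counts against 3, counting interval 16985 to 240699, edgeR adjusted p = 9.12e-07). That of Cxcl9 was 1023 (803 counts against 1, counting interval 183 to 40449, edgeR adjusted p = 2.28e-05). Cxcl11 went from 0 to 1307 counts, at least 555-fold higher (edgeR adjusted p = 0.00166). Cxcl1 rose 7.25-fold, by 2.86 ± 0.77 (n = 3 against 3, edgeR adjusted p = 0.0147), Cxcl2 3.33-fold, by 1.73 ± 0.46 (edgeR adjusted p = 0.0129), and Cxcl16 3.18-fold, by 1.67 ± 0.52 (edgeR adjusted p = 0.0284). In each of these 6 genes, all 3 treated libraries exceeded all 3 controls, which describes genes already called and is no separate check. Cxcl3 changed by 0.50 ± 0.65 and was not called (edgeR adjusted p = 0.63). The call of Cxcl1 was lost without WT control 1 or 3 (edgeR adjusted p = 0.0546 and 0.0539), that of Cxcl2 without treated library 2 (0.05), and that of Cxcl16 without treated library 1, control 2 or control 3 (0.0817, 0.107 and 0.0929).

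In CRE BMDCs, the Cxcr3 ligands rose again by large factors. Of 7 members 4 were called higher and 0 lower, where 14% of all genes were called higher. Among the 4, Cxcl9, Cxcl10 and Cxcl11 passed the filter through treated libraries alone, so that count is not to be read against the share. Cxcl10 rose by 13.10 ± 0.86 (95% interval 11.22 to 14.98, edgeR adjusted p = 1.30e-06), and by 14.16 without the CRE libraries numbered 2 (edgeR adjusted p = 3.68e-07). The count ratio of Cxcl9 was 248 (582 counts against 3, counting interval 84.3 to 1204, edgeR adjusted p = 5.08e-05), and Cxcl11 went from 0 to 950 counts, at least 404-fold higher (edgeR adjusted p = 0.00272). Cxcl2 rose 2.78-fold, by 1.47 ± 0.45 (edgeR adjusted p = 0.0331), a call that was lost in 5 of the 6 fits that left out 1 of these libraries (edgeR adjusted p of 0.0584 to 0.123), all but the fit without treated library 2. Cxcl1 and Cxcl16 changed by 2.08 ± 0.73 and 1.0 ± 0.51 and were not called (edgeR adjusted p = 0.0558 and 0.182). Equal numbers paired control and treated libraries within a label, and with the number as a block within genotype both were called, at 2.11 for Cxcl1 (edgeR adjusted p = 0.000935) and 1.29 for Cxcl16 (edgeR adjusted p = 0.00522). Without the CRE libraries numbered 2 both were also called, at 2.14 for Cxcl1 (edgeR adjusted p = 0.00808) and 1.76 for Cxcl16 (edgeR adjusted p = 0.00659). Cxcl3 changed by 0.10 ± 0.65 (edgeR adjusted p = 0.937).

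The Cxcr3 ligands made up a changing share of the summed level of the 8 genes. As a share of that summed FPKM, they held 0.7% to 2.5% in the 4 BMDM control libraries and 95.6% and 94.8% in WT BMDMs with DMXAA. In CRE BMDMs with DMXAA they held 55.7% and 54.5%, with Cxcl16 at 43.2% and 44.8%. In BMDCs their share went from at most 0.4% in the 6 controls to 88.6%, 94.2% and 93.1% in WT and 93.5%, 75.9% and 94.5% in CRE with DMXAA. The treated CRE BMDMs were therefore the group where Cxcl16 came closest to the Cxcr3 ligands. Without agonist, Cxcl16 was the most abundant member in every tested BMDM control and in 4 of the 6 BMDC controls, and Cxcl3 in WT control 2 and CRE control 3. Other CXC ligands are not in this sum, such as Cxcl14, whose mean FPKM in BMDMs was 165 ± 183 (SD, n = 2) in WT control, 84 ± 90.1 in WT with DMXAA, 261 ± 11.2 in CRE control and 202 ± 3.5 in CRE with DMXAA.

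**Figure D3:**
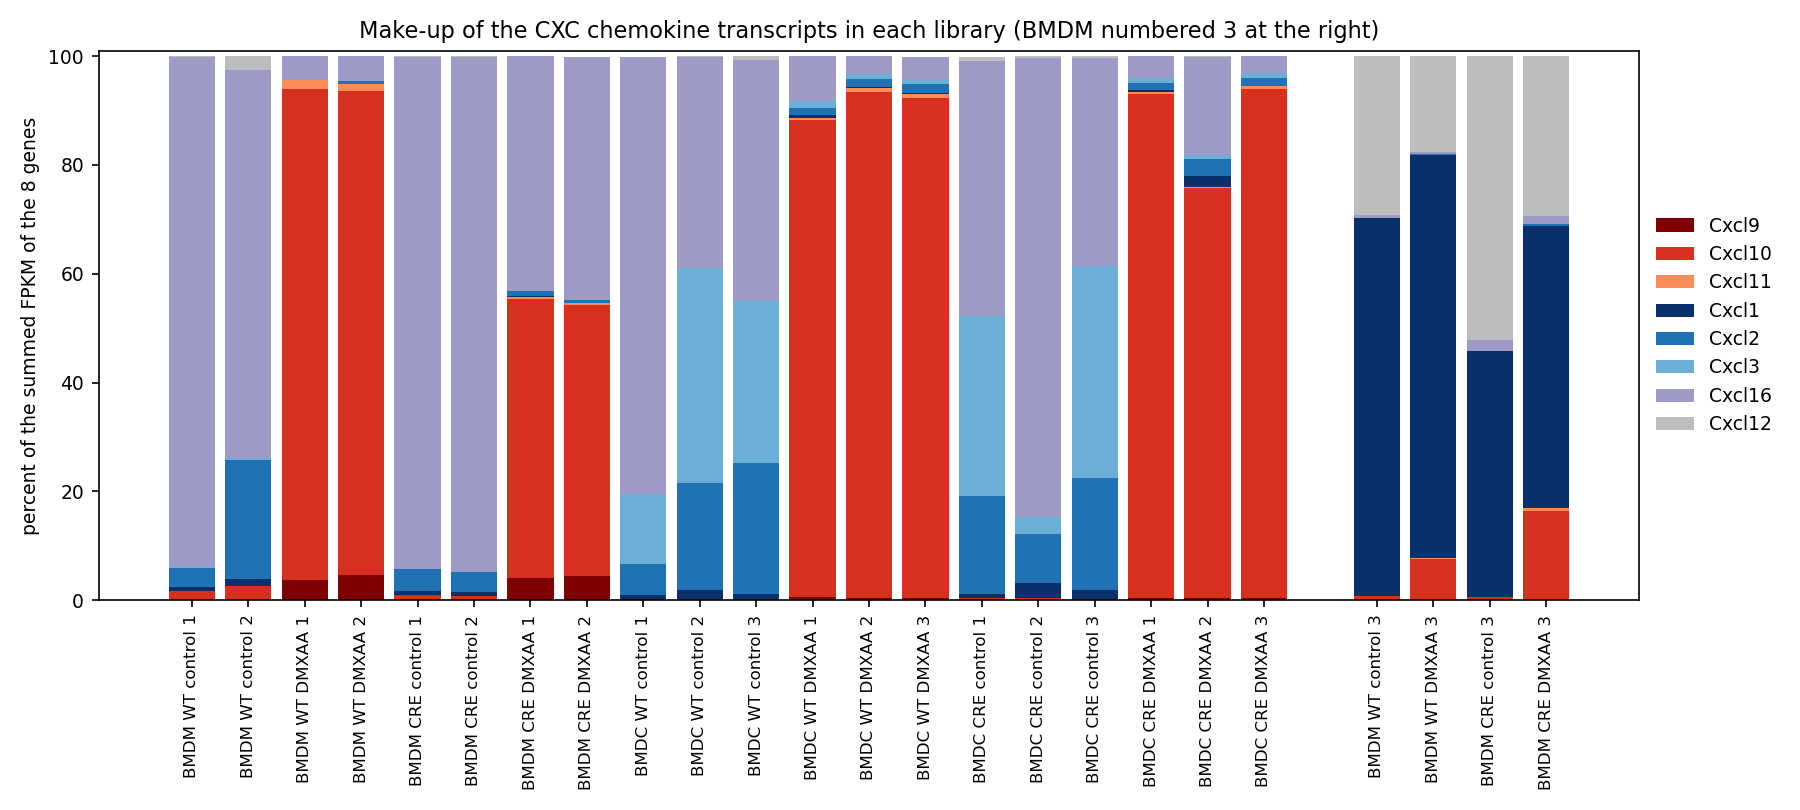
Share of each member in the summed FPKM of the 8 genes, in percent, 1 stacked bar per library. Cxcl10 fills most of every treated bar except those of CRE BMDMs, where it holds 51.3% and 49.7%, and those of the BMDM libraries numbered 3, where Cxcl1 holds 74.1% (WT) and 51.8% (CRE).

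The 3 Cxcr3 ligands kept different ratios in the 2 cell types. The ratio of Cxcl10 to Cxcl9 FPKM was 24.2 and 19.3 in treated WT BMDMs and 12.6 and 11.1 in treated CRE BMDMs. It was 152, 210 and 218 in treated WT BMDCs and 217, 172 and 247 in treated CRE BMDCs. All 6 treated BMDC libraries thus lay above all 4 treated BMDM libraries. The ratio of Cxcl9 to Cxcl11 FPKM was 2.15 and 3.9 in treated WT BMDMs, but 10.5 and 12.1 in treated CRE BMDMs. In treated BMDCs it was 1.2, 0.678 and 0.66 in WT and 0.793, 2.49 and 0.637 in CRE, with the CRE library numbered 2 highest. These ratios are descriptions and were not tested.

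The comparison of CRE with WT BMDMs under DMXAA asks how the response depended on the Tmem173 label. Of 7 members 4 were called lower in CRE and 0 higher, where 9.99% of all genes were called lower. The log2 difference was -4.76 ± 0.15 for Cxcl9 (95% interval -5.16 to -4.37, edgeR adjusted p = 0.00106), -5.64 ± 0.41 for Cxcl10 (-6.61 to -4.67, edgeR adjusted p = 0.00111) and -6.78 ± 0.41 for Cxcl11 (-7.79 to -5.77, edgeR adjusted p = 0.00112). Cxcl16 differed less, by -1.50 ± 0.17 (-1.90 to -1.09, edgeR adjusted p = 0.00278). The intervals of the 3 Cxcr3 ligands do not reach that of Cxcl16. In each of the 4 genes, both CRE libraries lay below both WT libraries, which describes genes already called and is no separate check. Cxcl11 passed the filter in BMDMs through the 2 treated WT libraries alone, so its difference between the labels had to be there.

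The Cxcr2 ligands and Cxcl12 were not called in that comparison. Cxcl1 differed by -2.87 ± 1.11 and Cxcl2 by -3.43 ± 1.32 (edgeR adjusted p = 0.123 for both), and Cxcl12 by -3.86 ± 1.90 (edgeR adjusted p = 0.205). Cxcl1 was called without WT treated library 1 (edgeR adjusted p = 0.0445) but stood at -0.61 without both WT libraries numbered 2 (edgeR adjusted p = 0.646), and DESeq2 called Cxcl2 and Cxcl12 (adjusted p = 0.00506 and 0.0386). Without the WT libraries numbered 2, Cxcl2 stood at -1.41 and Cxcl12 turned to 1.08. In the control BMDMs, 0 of 7 members were called by edgeR, 2 of them at an unadjusted p under 0.05, where 0.0432% of all genes were called. Cxcl10 differed there by -2.26 ± 0.50 (edgeR adjusted p = 0.42), with 135 counts in WT and 26 in CRE, and DESeq2 called it (adjusted p = 0.000286), as did edgeR without WT control 1 (adjusted p = 0.0113). Without the WT libraries numbered 2, Cxcl10 differed there by -1.41 and Cxcl16 by -0.29. Cxcl9 and Cxcl11 were at or under 3 counts in both control groups.

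**Figure D4:**
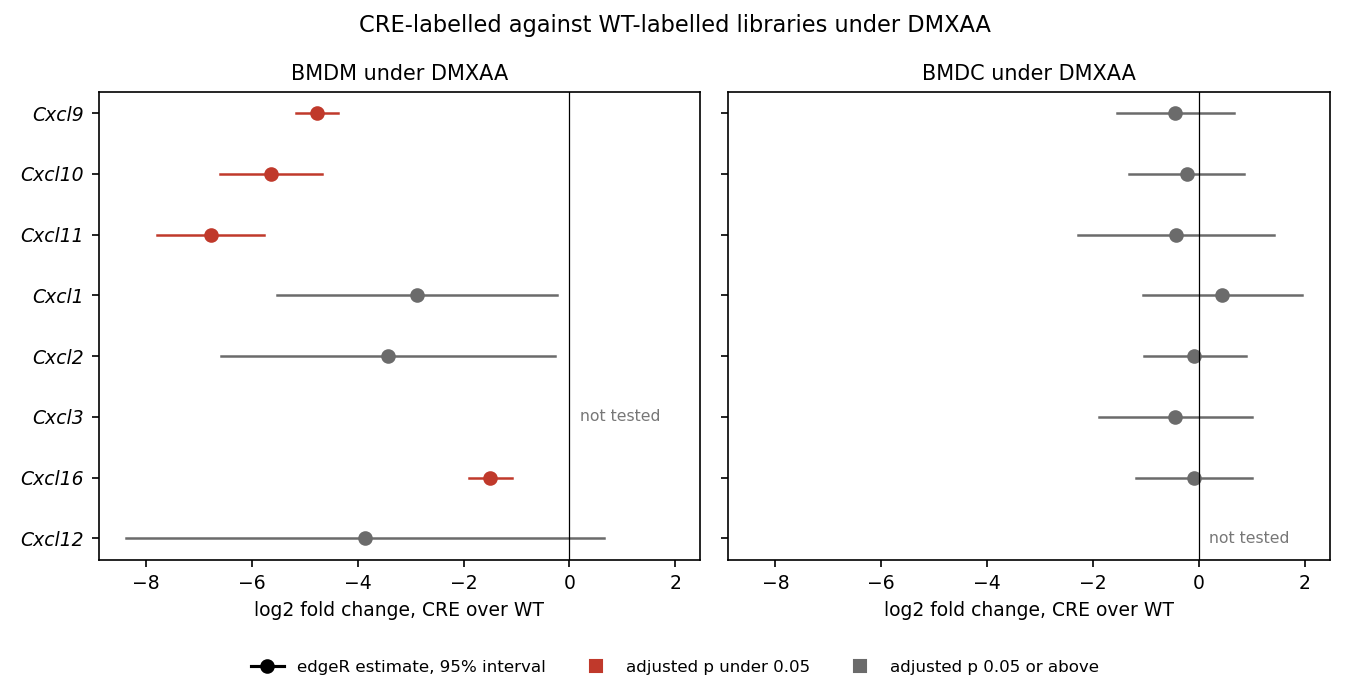
Log2 difference of CRE from WT libraries under DMXAA for each member, with edgeR estimates and 95% intervals, in BMDMs (left) and BMDCs (right). In BMDMs under DMXAA, Cxcl9, Cxcl10 and Cxcl11 lie between -6.78 and -4.76 and Cxcl16 at -1.50, while in BMDCs under DMXAA the estimates lie between -0.44 and 0.45.

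The interaction of label and DMXAA in BMDMs tests whether the log2 response itself differed. It called 1 of 7 members, Cxcl10, with a response smaller in CRE by -3.38 ± 0.66 (95% interval -4.96 to -1.80, edgeR adjusted p = 0.0465), where 3.66% of all genes were called. That call was lost when WT treated library 1 or any of the 4 CRE libraries was left out (edgeR adjusted p of 0.096 to 0.26), and under the replicate block (-3.40, edgeR adjusted p = 0.0581). Cxcl16 had an interaction of -0.98 ± 0.24 (edgeR adjusted p = 0.0794), called with the block within genotype (-0.99, edgeR adjusted p = 0.0363), by DESeq2 (adjusted p = 0.00187), by limma on log2(FPKM + 1) (adjusted p = 0.0492) and by edgeR without WT control 2 (-1.23, adjusted p = 0.0139) or WT treated library 2 (-1.08, adjusted p = 0.049). Without both WT libraries numbered 2, the interaction was -4.38 for Cxcl10, -1.31 for Cxcl16 and -1.32 for Cxcl2. Cxcl9 and Cxcl11 had 0 or 1 count in a control group, so their interactions are not given as values.

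In BMDCs, CRE and WT libraries were not told apart. Of 7 members, edgeR called 0 under DMXAA, 0 in control and 0 in the interaction, none at an unadjusted p under 0.05, and 0% of all genes were called in each. At an unadjusted p under 0.05 the counts over all genes were 108, 99 and 60 of 12126, and DESeq2 called 0, 0 and 1 genes, none of them a member. Under DMXAA the log2 difference was -0.44 ± 0.50 for Cxcl9 (95% interval -1.54 to 0.67), -0.23 ± 0.49 for Cxcl10 (-1.31 to 0.86) and -0.43 ± 0.79 for Cxcl11 (-2.28 to 1.43). Their intervals exclude differences of the size measured in BMDMs. Cxcl1 differed by 0.45 ± 0.69 (-1.06 to 1.96), Cxcl2 by -0.08 ± 0.44 (-1.04 to 0.89), Cxcl3 by -0.44 ± 0.66 (-1.88 to 1.0) and Cxcl16 by -0.09 ± 0.50 (-1.19 to 1.01), with an edgeR adjusted p of 1 for all 7. Without the CRE libraries numbered 2, the signs of Cxcl10 (0.20), Cxcl11 (0.09), Cxcl2 (0.11) and Cxcl1 (-0.63) turned. These values rest on the library pairs described above that are nearer across labels than within them, and the part of that closeness in the result was not tested. In control BMDCs, Cxcl16 differed by 0.58 ± 0.50 and Cxcl1 by 1.23 ± 0.76, and the Cxcl10 count ratio was 4.68 (14 counts against 3, counting interval 1.31 to 25.4).

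Between the cell types, Cxcl3 was higher in BMDCs with and without agonist, while the other called members were lower there. Cxcl3 passed the filter of this fit through BMDC libraries alone and so had to differ. In WT controls of a fit over 20 libraries, 1 of 7 members was called higher in BMDCs (14.6% of all genes) and 2 lower (13.9%). Cxcl3 was higher by 5.38 ± 0.98 (95% interval 3.28 to 7.48, edgeR adjusted p = 0.000802), and by 6.08 without the WT BMDM libraries numbered 2 (edgeR adjusted p = 0.00936). Cxcl1 and Cxcl2 were not called, at -0.95 and -0.85, and turned to 0.12 (edgeR adjusted p = 0.954) and 1.72 (edgeR adjusted p = 0.0999) without those libraries. Cxcl10 was lower, with a count ratio of 0.0159 (3 counts against 135, counting interval 0.00323 to 0.0474, edgeR adjusted p = 0.000259). Cxcl16 was lower by -1.48 ± 0.48 (edgeR adjusted p = 0.0304), a call that was lost without either BMDM library, without BMDC control 2 or 3 (edgeR adjusted p of 0.059 to 0.154), or without both WT BMDM libraries numbered 2 (0.139).

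Under DMXAA, 1 of 7 members was called higher in WT BMDCs than in WT BMDMs (15.2% of all genes) and 4 lower (16.1%). Cxcl3 was higher by 6.07 ± 1.04 (edgeR adjusted p = 0.000504), and by 7.44 without the WT BMDM libraries numbered 2 (edgeR adjusted p = 0.0062). Cxcl9 was lower by -4.79 ± 0.46 (edgeR adjusted p = 5.98e-06), a difference that held without each library in turn. Cxcl11 was lower by -2.94 ± 0.76 (edgeR adjusted p = 0.0132) and Cxcl10 by -1.63 ± 0.50 (edgeR adjusted p = 0.0222). Both calls were lost without BMDM treated library 1 (edgeR adjusted p = 0.0882 and 0.116), and that of Cxcl10 also without BMDC treated library 1 or 3 (0.0797 and 0.0595). Cxcl16 was lower by -1.54 ± 0.48 (edgeR adjusted p = 0.0227) and lost its call without either BMDM library or BMDC library 2 or 3 (edgeR adjusted p of 0.0556 to 0.109), and without both WT BMDM libraries numbered 2 (0.0615).

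Cxcl1 and Cxcl2 were not called between the treated cell types, at 1.36 ± 0.90 and 0.82 ± 0.83 (edgeR adjusted p = 0.276 and 0.489). With the replicate number as a block within genotype they were, at 1.84 and 1.42. Each such block lies within a single cell type, so that fit takes out library spread that a comparison between cell types needs. Its p-values are therefore too small for this comparison, and these calls decide nothing. Without the WT BMDM libraries numbered 2, Cxcl2 was higher in BMDCs by 2.86 (edgeR adjusted p = 0.0133). The interaction of cell type and DMXAA called 0 of 7 members by edgeR, 1 at an unadjusted p under 0.05 and 1 by DESeq2, where 2.99% of all genes were called. The interaction of Cxcl10 was not called (edgeR adjusted p = 0.076, and 0.271 without the WT BMDM libraries numbered 2) and rests on 3 counts in the WT BMDC controls, so it is not given as a value. With the block within genotype, the interactions of Cxcl10 (edgeR adjusted p = 0.0266), Cxcl1 (2.44, edgeR adjusted p = 0.0256) and Cxcl2 (1.61, edgeR adjusted p = 0.0386) were called.

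The receptors and processing enzymes of these chemokines were taken, with other CXC ligands, from a list of 19 genes. Of these, 8 were tested in BMDMs, the ligands Cxcl14, Pf4 and Ppbp among them. In WT BMDMs with DMXAA, 1 was called higher and 2 lower, where 18.4% of all genes were called higher and 20.7% lower, with a median log2 change of -0.64 against -0.08 over all genes. Adam17, a sheddase of Cxcl16, went from a mean FPKM of 32.2 to 61.3 and rose by 0.82 ± 0.13 (edgeR adjusted p = 0.00298). The Cxcl12 receptor Cxcr4 went from 63.9 to 27.3 and fell by 1.34 ± 0.23 on the log2 scale (edgeR adjusted p = 0.00432). Cxcr3, the receptor of the 3 most induced ligands, went from 2.64 to 0.539 and fell by 2.37 ± 0.41 on the log2 scale (edgeR adjusted p = 0.0047). In CRE BMDMs, edgeR called 0 of the 8, where 10% of all genes were called in either direction. Of the 8, 2 were at an unadjusted p under 0.05, and the median was -0.32 against -0.01. Under DMXAA, CRE BMDMs had more Cxcr4 (log2 difference 1.21 ± 0.23, edgeR adjusted p = 0.0141) and less Adam17 (-0.78 ± 0.13, edgeR adjusted p = 0.00867) than WT BMDMs.

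In BMDCs, 9 of the 19 genes were tested, and the same 2 were called in each label. Of all genes, 32.2% (WT) and 25.4% (CRE) were called in either direction. Adam17 was higher with DMXAA by 0.88 ± 0.21 in WT (edgeR adjusted p = 0.00695) and by 0.72 ± 0.21 in CRE (edgeR adjusted p = 0.024). Cxcr2, the receptor of Cxcl1, Cxcl2 and Cxcl3, had a mean FPKM of 10.8 in WT control and 0.49 in WT with DMXAA, a log2 change of -4.47 ± 0.44 (edgeR adjusted p = 2.52e-05). In CRE BMDCs it went from 9.1 to 1.07, a log2 change of -3.11 ± 0.40 (edgeR adjusted p = 0.000232). The mean FPKM of Cxcr2 was at most 0.125 in the 4 BMDM groups. Summed markers of neutrophils, a cell type that carries Cxcr2, were at 8.8 to 349 CPM in the 12 BMDC libraries. They were highest in the CRE libraries numbered 2, at 349 in control and 163 with DMXAA. In WT BMDCs they were 18.9, 18.8 and 28.2 in control and 8.8, 21.8 and 27.8 with DMXAA. The part of these markers in the Cxcr2 values was not tested.

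Known regulators of the members, another list of 19 genes, were also changed in BMDMs. Of 18 tested, 15 were called higher and 0 lower with DMXAA in WT BMDMs, where 18.4% of all genes were called higher (median log2 change 1.67 against -0.08 over all genes). In CRE BMDMs 7 were called higher and 0 lower, where 7.28% of all genes were called higher (median 0.79 against -0.01). Under DMXAA 12 were lower and 0 higher in CRE than in WT BMDMs, where 9.99% of all genes were called lower (median -0.94 against 0.01). The 15 and the 12 include Ifnb1, which had to differ as given below. Irf7, a transcription factor of the interferon response, rose by 8.43 in WT and 8.02 in CRE and differed by -0.89 ± 0.22 between the treated labels (edgeR adjusted p = 0.0364). Irf1 rose by 4.77 in WT and 2.53 in CRE, and differed by -2.10 ± 0.15 (edgeR adjusted p = 0.00111). Nfkbia, the NF-κB inhibitor gene that NF-κB itself induces, rose by 1.87 in WT (edgeR adjusted p = 0.00083), changed by 0.17 in CRE (edgeR adjusted p = 0.627) and differed by -2.47 ± 0.21 (edgeR adjusted p = 0.00138).

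Ifnb1, the type I interferon that STING signalling induces, had 229 counts in treated WT BMDMs, 1 in treated CRE BMDMs and 0 in both control groups. It passed the filter through treated libraries alone, in BMDMs through the WT ones, and so had to differ. In BMDCs it went from 0 counts to 1646 in WT, at least 699-fold higher (edgeR adjusted p = 4.35e-05), and from 0 to 1313 in CRE, at least 560-fold higher (edgeR adjusted p = 6.22e-05). The treated CRE BMDMs therefore held Cxcl9 and Cxcl10 transcripts beside near-absent Ifnb1 transcripts at the time of sampling. In BMDCs, 16 of the 18 tested regulators, Ifnb1 among them, were called higher in each label. Of all genes, 17% (WT) and 14% (CRE) were called higher. In WT 1 regulator (Irf3) was lower and in CRE 0, where 15.2% and 11.4% of all genes were called lower. The medians were 2.20 and 1.88 against 0.01 and -0.01. Between the labels edgeR called 0 regulators under DMXAA or in control, with 0 at an unadjusted p under 0.05, and 0% of all genes were called.

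The plot of neighbouring genes sets the members beside the genes whose lower coordinate lies within 500 kb of that of Cxcl10 or Cxcl16. Around Cxcl10, 11 genes other than the members were tested in BMDMs. In WT, 3 were called higher with DMXAA (Naaa, Scarb2 and G3bp2, by 1.23, 0.75 and 1.78 on the log2 scale) and 1 lower (Nup54, -0.72). Of all genes, 18.4% were called higher there and 20.7% lower. In CRE edgeR called 0, where 7.28% of all genes were called higher and 2.72% lower, and 2 had an unadjusted p below 0.05. The 3 Cxcr3 ligands were thus far above every tested neighbour. Around Cxcl16, 6 of 29 tested genes were called higher and 4 lower in WT BMDMs, against 18.4% and 20.7% of all genes. Zmynd15, among those higher, lies on the opposite strand and overlaps Cxcl16 by 552 bases. It rose by 2.28 ± 0.28 in WT (edgeR adjusted p = 0.00127) and 1.22 ± 0.28 in CRE BMDMs (edgeR adjusted p = 0.0426). The kit does not mark strand, so reads in the shared bases cannot be told apart, and the part of this overlap in the Cxcl16 values was not tested, with at most 557 Zmynd15 counts in any of the 20 libraries. Art3 overlaps Cxcl10 and Cxcl11 on the opposite strand but had at most 16 counts.

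**Figure D5:**
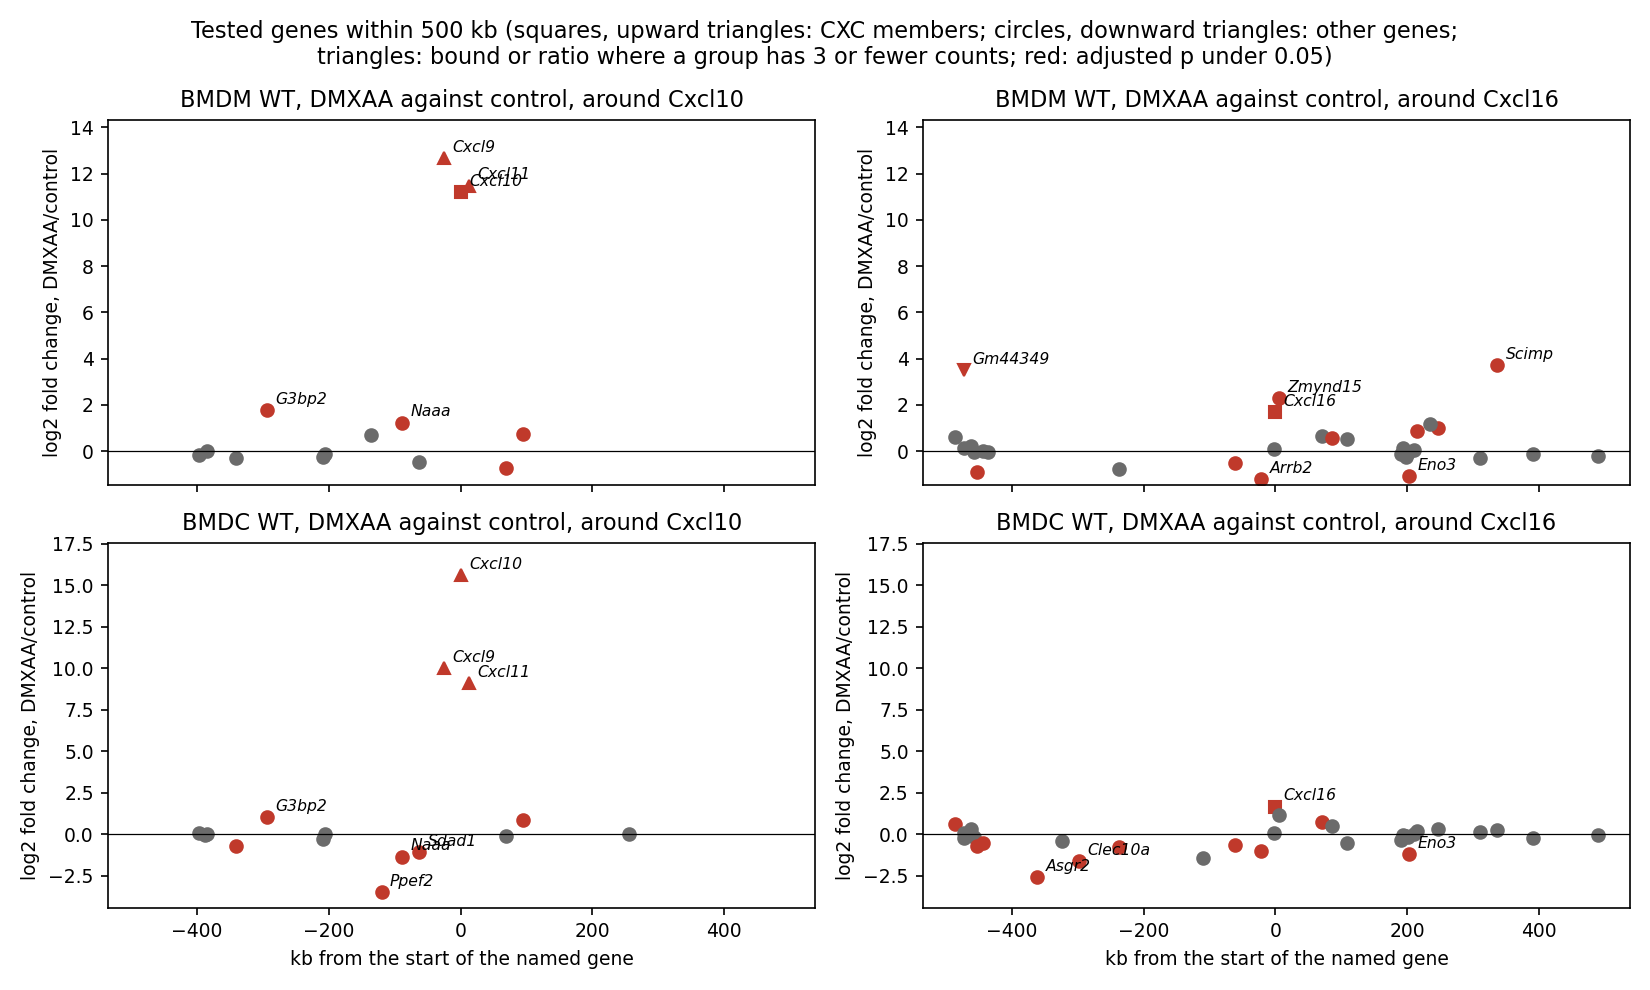
Log2 change under DMXAA against distance in kb from the lower coordinate of the named gene, for all tested genes within 500 kb. Columns are Cxcl10 (left) and Cxcl16 (right), and rows are WT BMDMs (top) and WT BMDCs (bottom). Red points are called genes and grey points are not. Squares and upward triangles are members, circles and downward triangles are other genes, and triangles mark bounds or ratios. Called members are labelled, as are called neighbours with the larger changes. In WT BMDMs the largest neighbour around Cxcl10 is G3bp2 at 1.78, against 11.20 for Cxcl10.

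The 3 genes closest in profile to each member were taken as those with the smallest root mean square difference in centred log2(FPKM + 1) over the 20 libraries, among 11223 genes. For Cxcl10 they were Ifit1, Rsad2 and Oasl1 (0.884, 0.888 and 0.902, against a spread of 4.79 of Cxcl10 itself), which are interferon-stimulated antiviral genes. For Cxcl9 they were Pou3f1, Tlr3 and Tgtp1 (0.839, 0.874 and 0.877, own spread 2.26), and for Cxcl11 Tgtp1, Nod1 and BC147527 (0.677, 0.678 and 0.747, own spread 1.96). For Cxcl16, the closest were Hist3h2a, Rab9 and Mdfic (0.39, 0.437 and 0.441, own spread 1.03). For the Cxcr2 ligands, they were Laptm4b, Sh3bp4 and Setd4 for Cxcl1 (0.33, 0.378 and 0.381, own spread 0.809), Lif, Pgf and Ppp1r15a for Cxcl2 (0.555, 0.556 and 0.641, own spread 1.28), and Sema4a, Clec2l and Gja5 for Cxcl3 (0.378, 0.386 and 0.406, own spread 1.66). For Cxcl12 they were Zfp655, Tnk2 and Gm12966 (0.221, 0.233 and 0.238, own spread 0.403).

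The BMDM libraries numbered 3 held another set of members. Cxcl12 had an FPKM of 66.4 in the WT control and 58.3 in the WT library with DMXAA, and of 33.7 and 36 in CRE. Cxcl1 had 158 and 246 in WT and 29.2 and 63.6 in CRE, whereas it was at most 1.99 in the other BMDM libraries. Cxcl16, the leading member of the other BMDM controls, was at 0.858 to 1.83 in these 4 libraries. Cxcl10 was at 1.61 and 25.4 in WT and 0.377 and 20.1 in CRE, and Cxcl9 stayed at or under 0.0542. With 1 library for each condition, these are values of single libraries.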

How the data were processed

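PolyA RNA of 24 libraries (3 per group, 8 groups) was prepared with an unstranded NEBNext Ultra kit. Per the labels, the authors filtered reads with fastp, aligned them to GRCm38 (mm10) with HISAT2 2.0.5 and deposited raw read counts per gene from featureCounts 1.5.0-p3. Whether counting used strand is not given in the sources used here. They also deposited FPKM, counts scaled by gene length and a library size of 0.687 to 1.33 times the library's total count. Columns of the authors' own comparisons (DESeq2 1.20.0 fold changes and p-values) were not used, and 0 per-library columns were left unmatched to a sample.

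Groups came from the labels. Counts were tested with edgeR 4.0.16 (TMM, glmQLFit, glmQLFTest, two-sided, R 4.3.3) in fits of 8 BMDM libraries (without those numbered 3, 11569 genes), 12 BMDC libraries (12126 genes) and 20 libraries of both (12730 genes), and called at an adjusted p (Benjamini-Hochberg) below 0.05. Genes had an FPKM of at least 1 in 2 (BMDM) or 3 (BMDC, both) libraries. Counting intervals are exact Clopper-Pearson (scipy 1.17.1), and FPKM values carry no interval. Alternatives were RLE factors, filters on total counts of 10 or filterByExpr, DESeq2 1.42.0, limma 3.58.1 on log2(FPKM + 1) and log2(FPKM + 0.1), replicate blocks, only the groups compared, the libraries numbered 3 included, each library left out, and 2 chosen after seeing the data (without both BMDM WT, or both BMDC CRE, libraries numbered 2). On simulated counts with 200 changed genes, the BMDM fit recovered 20% of 2-fold and 85% of 4-fold changes, and the BMDC fit 37% and 84%.

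Deviations of equally numbered BMDC control and DMXAA libraries from their group means correlated within a label (r of 0.42 to 0.69) and not across labels (-0.51 to 0.03), so BMDC libraries are paired within genotype by the data, not by a label. BMDMs had 2 pairs per label, with r of 0.68 in WT and 0.04 in CRE, which decides nothing.

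The members and the gene lists were chosen with earlier results of these data known. Genes named are the 8 members, 19 receptors, proteases and other CXC ligands, 19 regulators, the 3 genes nearest in profile to each member and tested neighbours within 500 kb. The values of 1 listed regulator are not reported here. The 11-base run was picked after its values were seen.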

Additional observations from a re-analysis of the deposited data

Results flagged for a closer look

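The Cxcl10 response to DMXAA in BMDMs differed between the labels by an interaction term, at -3.38 on the log2 scale (CRE minus WT, edgeR adjusted p = 0.0465). The values of the 4 groups of 2 libraries are given above. Groups of 2 or 3 libraries are too small for a test of single distant samples, so none was made.

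The BMDM libraries numbered 3, which entered no comparison, also held more of some members with DMXAA than without. Each value compares 1 library with 1 library, with no replicate check and a counting interval that covers counting error only. The fold of DMXAA over control for Cxcl10 was 15.9 in WT (1387 counts against 86, interval 12.8 to 20) and 54.5 in CRE (1106 against 18, interval 34.3 to 92.3). For Cxcl11 it was 36 in WT (73 against 2, interval 9.61 to 303) and at least 20.4 in CRE (69 against 0). For Cxcl1 it was 1.56 in WT (interval 1.52 to 1.61) and 2.23 in CRE (interval 2.08 to 2.39), and for Cxcl2 at least 6.24 in WT and at least 5.62 in CRE (19 counts against 0 in both). Cxcl9 had 2 counts in the WT and 4 in the CRE library with DMXAA, against 0 in both controls. For Cxcl12 the fold was 0.884 in WT (interval 0.862 to 0.906) and 1.1 in CRE (interval 1.06 to 1.14). For Cxcl16 it was 0.828 in WT (interval 0.583 to 1.17) and 1.36 in CRE (interval 1.03 to 1.8). The Cxcl10 fold was thus larger in the CRE pair than in the WT pair, a difference that was not tested.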

How the results depend on the processing

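The number of members called was counted under each alternative, mostly among 7 tested. With the BMDM libraries numbered 3 included, where 6 were tested in BMDMs and 8 between cell types, 0 were called in WT BMDMs with DMXAA, 0 in CRE BMDMs with DMXAA, 0 in CRE against WT BMDMs under DMXAA and 0 in the BMDM interaction, and 1 (Cxcl3) between treated WT BMDCs and BMDMs. In CRE against WT control BMDMs, DESeq2 called 1, leaving out 1 library gave 0 to 1, and leaving out both WT libraries numbered 2 gave 2. In CRE BMDMs with DMXAA, leaving out 1 library gave 2 in each case.

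The BMDM interaction was the least stable. Against 1 call, there were 0 with the total count filter, 0 with filterByExpr, 3 with DESeq2, 4 with limma on log2(FPKM + 1), 3 with limma on log2(FPKM + 0.1), 0 with the replicate block, 2 with the block within genotype, 0 to 2 leaving out 1 library and 4 without the WT libraries numbered 2. Between treated WT BMDCs and BMDMs, leaving out 1 library gave 2 to 4. The cell type interaction had 0 calls, and 1 with DESeq2, 2 and 1 with limma at the larger and smaller pseudocount and 3 with the block within genotype. The cause was not tested.

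Of 1386 log2 values under an alternative, 0 reversed with a call in either fit, 66 differed in sign with no call in either, 58 lost a call and 38 gained one. Calls of genes over all moved too, such as 248 to 321 against 1157 for DMXAA in CRE BMDMs with 1 library left out. The block changed no member's call beyond those given here and above. The block across labels gave 5 members for CRE BMDCs with DMXAA.

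BMDMs rest on 2 libraries per group, and genes near 0 in control, such as Cxcl9 and Cxcl11, have folds bounded by depth only.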
